A study of Mus musculus with 12 samples.

Results

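The genes described here are 32 genes of the ATF4 response and of serine and one-carbon metabolism, listed by name and matched by symbol to the Ensembl identifiers of the count tables. All 32 were found among 43629 identifiers, and all 32 passed the filter on low counts, which kept 15059 genes. The libraries belong to a study of direct reprogramming towards heart muscle, with 12 RNA sequencing libraries of C57BL/6 mouse cells in 4 groups of 3. AGHMT is the label of mouse embryonic fibroblasts 3 weeks after vectors for Akt, Gata4, Hand2, Mef2c and Tbx5, and GHMT that of the same kind of cells 3 weeks after Gata4, Hand2, Mef2c and Tbx5. Both were sorted before sequencing on GFP driven by the αMHC promoter, so each is the part of a culture that had switched on this heart muscle promoter. CM are ventricular cardiomyocytes isolated from adult mice, and E are embryonic fibroblasts that had received a vector without insert 3 weeks earlier. The labels name no sort for CM and E and no culture for CM. Factors and sort therefore cannot be told apart in AGHMT or GHMT against E, nor can cell type and culture in any comparison with CM.

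ATF4 is a transcription factor whose protein is made when stress kinases phosphorylate the initiation factor eIF2α, a route called the integrated stress response, and also when mTORC1 signalling is high. It raises the transcription of genes for amino acid uptake, for the synthesis of serine, asparagine, cysteine and proline, for the charging of transfer RNAs, and for the mitochondrial folate enzymes that turn serine into one-carbon units. Dividing cells use these units to make purines and thymidylate. Because ATF4 is controlled largely at translation, the Atf4 transcript is not a measure of its protein.

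Gene reads numbered 14386407 to 18493989 per AGHMT library, 1872558 to 2200815 per GHMT library, 5120230 to 15952646 per CM library and 15971154 to 33552138 per E library. Levels are given as CPM, read counts scaled to library size and to the trimmed mean of M values. Differences were tested with the quasi-likelihood test of edgeR, and p-values were adjusted by the method of Benjamini and Hochberg over all 15059 genes, at a threshold of 0.05. In GHMT 1, GHMT 2 and GHMT 3, 3 reads were worth 3.93, 1.56 and 2.06 CPM, and 10, 2 and 6 of the 32 genes had no read there, so low levels in GHMT are poorly resolved. Mitochondrially encoded genes took 36.6% to 42.7% of gene reads in AGHMT, 27.8% to 72.2% in GHMT, 40.0% to 59.9% in CM and 3.65% to 7.36% in E. Akt1 averaged 13.0 ± 6.22 CPM in AGHMT and 9.53 ± 7.12 CPM in GHMT (SD, n = 3 each), with a log2 fold change of 0.34 ± 0.79 (SE) and edgeR adjusted p = 0.786. Akt1 counts thus give no check of the AGHMT label, and AGHMT below means the libraries labelled so. Myh6, which encodes αMHC, averaged 145 ± 67.8 CPM in AGHMT, 47.7 ± 21.7 CPM in GHMT, 7423 ± 8650 CPM in CM and 0.986 ± 0.529 CPM in E. No label says whether replicates were separate cultures or animals, so p-values measure the spread between these libraries, which may be technical. In such bulk libraries, fewer cells of a type and less RNA per cell cannot be told apart.

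The classical site of ATF4 is a composite element bound together with C/EBP factors, known as the C/EBP-ATF response element. The letters TGATGNAA, read on either strand, were searched in the RefSeq promoters of build GRCm38.p6, from 250 bases before to 50 after each start. They were found for 9 of the 27 genes with a promoter entry (33.3%), against 1219 of 27025 genes in the whole table (4.51%). The stretches below are 6 of those before the RefSeq start, shown because they carry the letters in the promoters of genes whose levels are given afterwards. Each is written 5′ to 3′ on the strand of the gene, and capitals mark the match in either direction.
Chac1 (chr2:119351023-119351082, + strand): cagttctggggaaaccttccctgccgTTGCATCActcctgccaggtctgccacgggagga
Slc7a11 (chr3:50443646-50443705, - strand): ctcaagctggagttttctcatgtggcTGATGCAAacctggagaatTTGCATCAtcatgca
Pycr1 (chr11:120643818-120643877, - strand): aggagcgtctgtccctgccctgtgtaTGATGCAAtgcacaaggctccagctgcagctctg
Gars (chr6:55037941-55038000, + strand): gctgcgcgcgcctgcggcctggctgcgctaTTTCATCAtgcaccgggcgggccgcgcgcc
Asns (chr6:7693215-7693242, - strand): cccagccacaTGATGAAActtcccgcac
Nupr1 (chr7:126625563-126625590, - strand): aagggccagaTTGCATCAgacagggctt
Slc7a11 holds the letters in both directions within its stretch, and Trib3 and Iars hold them after the start. By the gene annotation, the stretches of Asns and Nupr1 lie inside the annotated gene, so they are before the start only for the RefSeq start used. A match is a description of letters, not a bound site, and no match says only that these letters are not in this window. Of the 9 genes with a match, 6 were lower in AGHMT than in E, 5 in GHMT than in E and 8 in CM than in E. Of the 18 with an entry and no match, the counts were 15, 16 and 12. Of all tested genes, 24.6%, 32.9% and 22.5% were lower in these comparisons.

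Most of the 32 genes were lower in AGHMT, in GHMT and in CM than in E, and Stc2 was the exception that passed as higher. The summed level of the 32 genes was 921 to 1046 CPM in AGHMT, 860 to 976 CPM in GHMT, 547 to 622 CPM in CM and 2231 to 3318 CPM in E. No library of the first 3 groups reached the lowest E library. In AGHMT against E, 25 genes passed as lower, where 24.6% of all tested genes did, and 1 passed as higher, against 21.9% of all genes. In GHMT against E, 24 passed as lower (32.9% of all genes) and 1 as higher (19.8%). In CM against E, 24 passed as lower (22.5%) and 1 as higher (19.5%). The median log2 fold change of the 32 genes was -1.95 in AGHMT, -3.03 in GHMT and -2.46 in CM, against -0.16, -1.06 and -0.26 over all tested genes. The libraries did not overlap with those of E for 29 of the 32 genes in AGHMT (71.6% of all genes), 26 in GHMT (59.5%) and 25 in CM (57.2%). These comparisons share the E libraries, so the counts are side by side and not independent. By name, 18 of the genes passed as lower in all 3, 5 in all but CM, 2 in all but GHMT, 1 in all but AGHMT and 3 in CM alone. The shares of all genes with these patterns were not computed, so these counts have no background beside them. Leaving out AGHMT 3 reduced the 25 genes lower in AGHMT to 14, and the share of all genes from 24.6% to 10.7%. The counts for GHMT and CM stayed between 19 and 27 with any 1 library left out. The shares of all genes were then 26.5% to 37.8% in GHMT and 16.4% to 25.3% in CM.

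**Figure D1:**
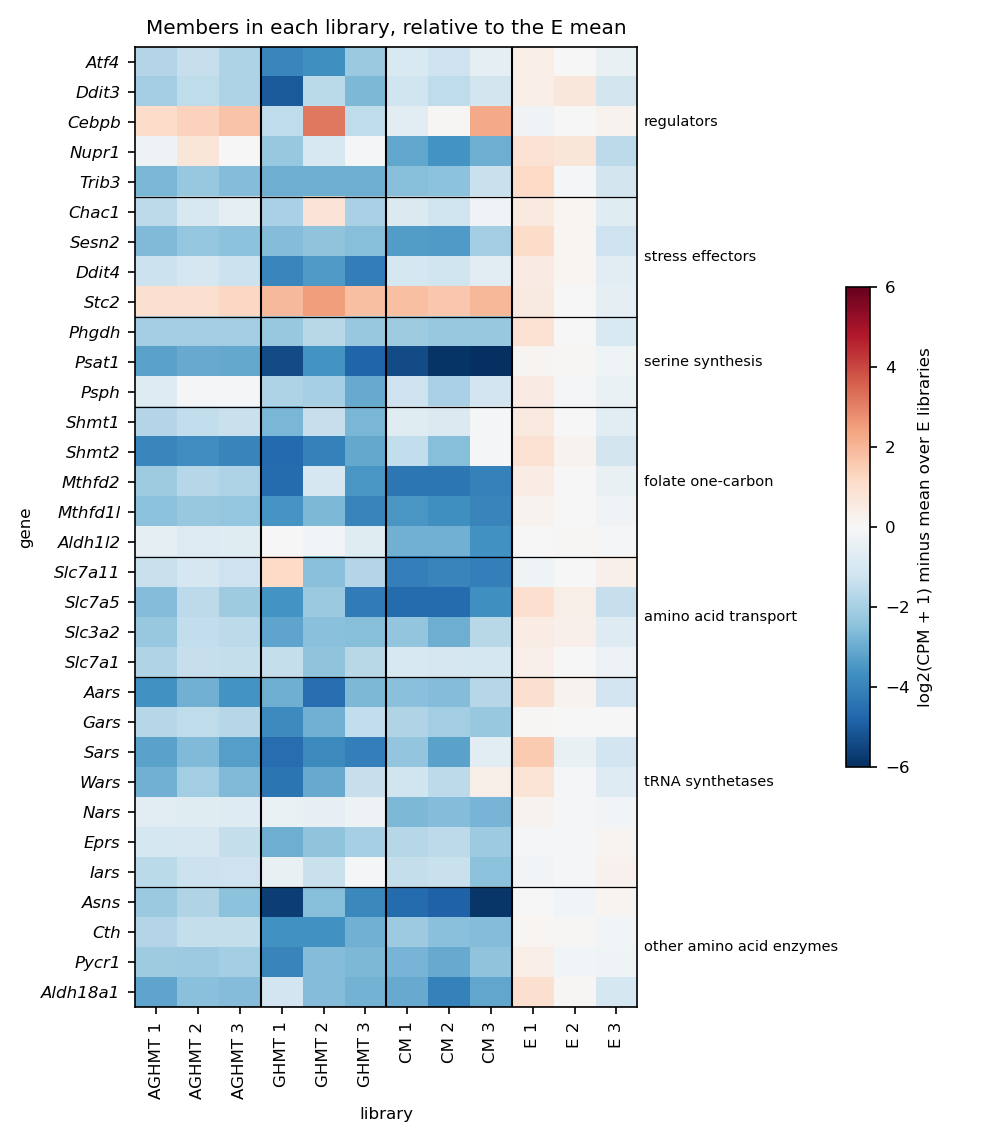
Level of each of the 32 genes (rows, by role) in each of the 12 libraries (columns), as log2(CPM + 1) minus its mean over the 3 E libraries. Blue is below and red above the E mean: most rows are blue in AGHMT, GHMT and CM, and Stc2 is red in all 9 of those libraries.

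**Figure D2:**
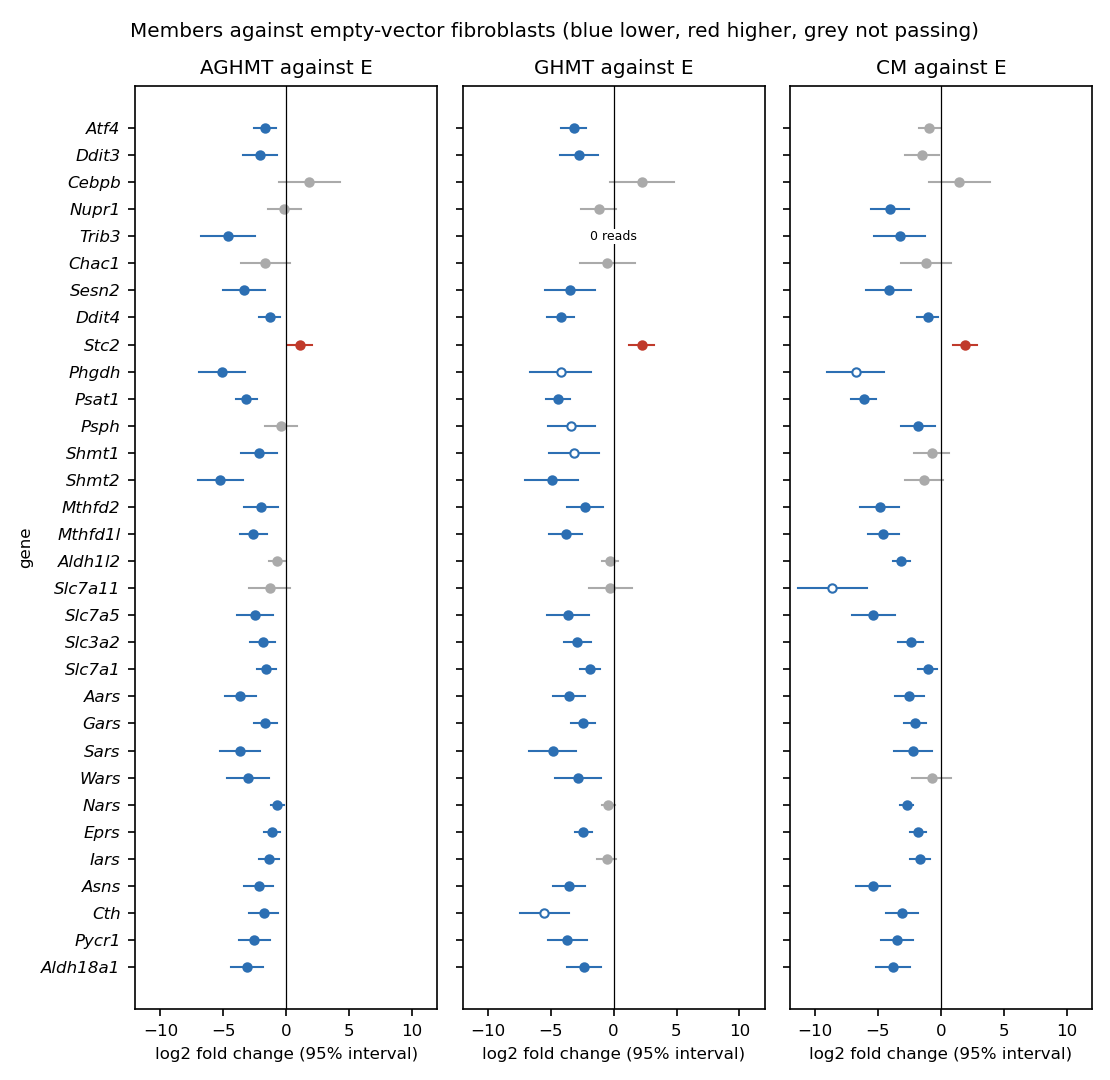
Log2 fold change against E with its 95% interval (horizontal axis) for each gene, in AGHMT, GHMT and CM. Blue genes passed as lower, red as higher and grey did not pass, open circles mark groups with 1 to 3 reads in all, and "0 reads" marks a group without reads, for which no value is drawn.

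Base composition moved with these calls. The transcripts of the 32 genes had a median GC content of 51.5% (40.7% to 67.2%), against 48.8% over the tested genes, and 15 of them lay in the upper GC tertile. Over all tested genes, 45.9% of the upper tertile and 6.77% of the lower passed as lower in AGHMT against E, and 48.5% and 14.7% did in GHMT against E. In CM against E the shares were 16.6% and 26.4%. Within the upper tertile, 13 of 15 of the genes described here passed as lower in AGHMT, 13 of 15 in GHMT and 10 of 15 in CM. Within the lower tertile, 3 of 4 passed in each. Within the middle tertile, the counts were 9, 8 and 11 of 13, where 21.3%, 35.5% and 24.6% of all genes of that tertile passed. With a correction of the counts for GC content, 22 of the 32 genes were lower in AGHMT (19.3% of all genes), 9 in GHMT (14.4%) and 23 in CM (23.3%). The part of base composition in the GHMT values beyond this correction was not tested.

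**Figure D3:**
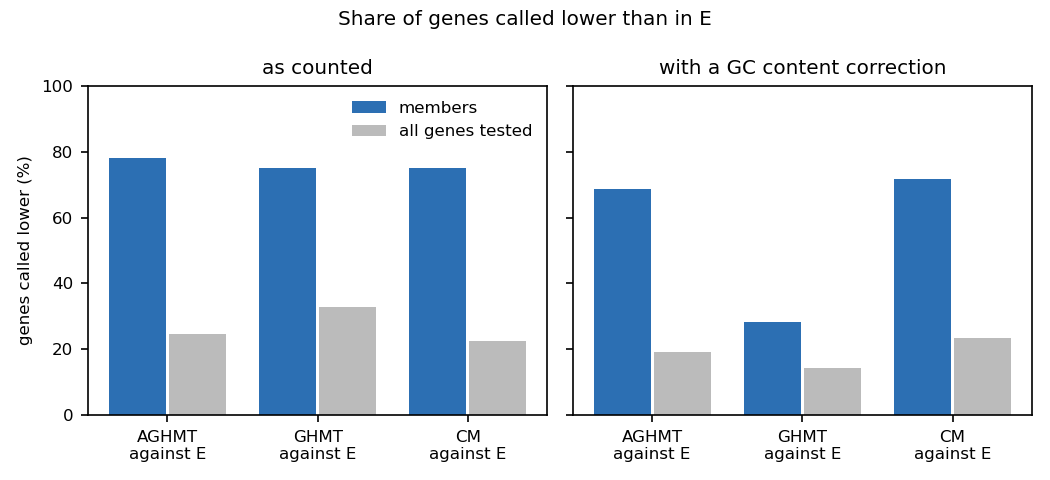
Share of the 32 genes (blue) and of all tested genes (grey) that passed as lower than in E, in percent, for AGHMT, GHMT and CM, from the counts as deposited (left) and with a GC content correction (right). The blue bar for GHMT stands at 75% on the left and at 9 of 32 genes on the right, while those of AGHMT and CM change little.

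Atf4 itself, on chromosome 15 (80255184-80257541, GRCm38), had 31.9, 42.7 and 30.2 CPM in AGHMT, 6.55, 7.82 and 23.4 CPM in GHMT, 59.5, 47.4 and 75.6 CPM in CM and 147, 115 and 82.8 CPM in E. The E libraries were highest and lay above all others, CM lay next, and the AGHMT and GHMT ranges did not meet each other or those of CM. The log2 fold change against E was -1.72 ± 0.41 in AGHMT (SE, edgeR adjusted p = 0.00441) and -3.15 ± 0.46 in GHMT (adjusted p = 0.000103). In CM it was -0.92 ± 0.40 and did not pass (edgeR adjusted p = 0.0818). With the GC correction neither AGHMT nor GHMT passed, at -0.30 and -0.34.

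Other regulators of the response divided between the groups. Ddit3, the transcription factor CHOP, averaged 8.44 ± 1.85 CPM in AGHMT, 4.67 ± 4.97 CPM in GHMT, 12.8 ± 2.09 CPM in CM and 36.4 ± 19.5 CPM in E (SD, n = 3 each). It passed as lower in AGHMT (-2.11 ± 0.63) and in GHMT (-2.78 ± 0.71), and in CM it was at -1.50 ± 0.62 without passing. The AGHMT call of Ddit3 was lost in 6 of 25 settings, limma, thinning and E 1 left out among them. Trib3, a pseudokinase that binds AKT and ATF4, had no read in any GHMT library and 1242 reads over the E libraries, of which 975 lay in E 1. Its mean CPM was at least 11.5-fold lower in GHMT than in E when 3 reads over the group (0.725 CPM) are taken as the floor, and at least 6.04-fold lower without E 1. It averaged 0.326 ± 0.204 CPM in AGHMT, 0.920 ± 0.989 CPM in CM and 8.36 ± 7.14 CPM in E, and passed as lower in AGHMT and in CM.

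Nupr1, a small chromatin protein induced by stress, had 23.4, 48.3 and 28.7 CPM in AGHMT, 5.24, 14.6 and 27.5 CPM in GHMT, 2.53, 1.51 and 2.92 CPM in CM and 54.5, 48.2 and 9.11 CPM in E. Every CM library lay below every other library, while AGHMT and GHMT overlapped with E. CM was lower than E by -4.02 ± 0.71 on the log2 scale (edgeR adjusted p = 0.000339), and the values for AGHMT (-0.15 ± 0.61) and GHMT (-1.19 ± 0.65) did not pass. Cebpb, a C/EBP factor that can pair with ATF4, averaged 6.55 ± 1.53 CPM in AGHMT and 5.18 ± 6.55 CPM in CM, against 1.85 ± 0.444 CPM in E, and passed in no comparison. In GHMT all 47 Cebpb reads lay in GHMT 2.

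The effectors of the response did not move as a block. Ddit4, the mTORC1 inhibitor REDD1, had 21.8, 26.4 and 21.5 CPM in AGHMT, 2.62, 4.17 and 2.06 CPM in GHMT, 25.6, 23.0 and 34.4 CPM in CM and 77.5, 59.7 and 34.2 CPM in E. GHMT lay below every other library, AGHMT lay below E, and CM 3 overlapped with E 3. The log2 fold change against E was -1.30 ± 0.39 in AGHMT (edgeR adjusted p = 0.0146), -4.22 ± 0.50 in GHMT (adjusted p = 1.64e-05) and -1.05 ± 0.39 in CM (adjusted p = 0.0414). With the GC correction none of the 3 passed, and the AGHMT value was 0.50. The CM call was lost in 15 of the 25 settings, DESeq2 and limma among them. Sesn2, a leucine sensor that restrains mTORC1, averaged 1.52 ± 0.294 CPM in AGHMT, 1.42 ± 0.131 CPM in GHMT and 0.969 ± 1.10 CPM in CM, against 16.0 ± 12.2 CPM in E, and passed as lower in all 3. The GHMT mean rests on 6 reads in all, and with the GC correction the GHMT value was -0.23 and did not pass. Chac1, which breaks down glutathione, averaged 0.996 ± 0.692 CPM in AGHMT, 1.91 ± 3.31 CPM in GHMT and 1.41 ± 0.887 CPM in CM, against 3.19 ± 1.78 CPM in E, and passed in none. All 11 of its GHMT reads lay in GHMT 2.

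Stc2, a secreted glycoprotein named stanniocalcin-2, went the other way. It had 10.9, 10.7 and 13.1 CPM in AGHMT, 22.3, 33.3 and 19.9 CPM in GHMT, 19.9, 17.4 and 23.2 CPM in CM and 7.71, 5.21 and 3.09 CPM in E. Every library of the first 3 groups lay above every E library. It passed as higher in GHMT (2.24 ± 0.47, edgeR adjusted p = 0.00131), in CM (1.91 ± 0.45, adjusted p = 0.00306) and, at the threshold, in AGHMT (1.12 ± 0.44, adjusted p = 0.05). The AGHMT call was lost in 14 of 25 alternative settings, among them any 1 of the 3 AGHMT libraries left out. With total counts as the scale, the calls of GHMT and CM were lost too.

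**Figure D4:**
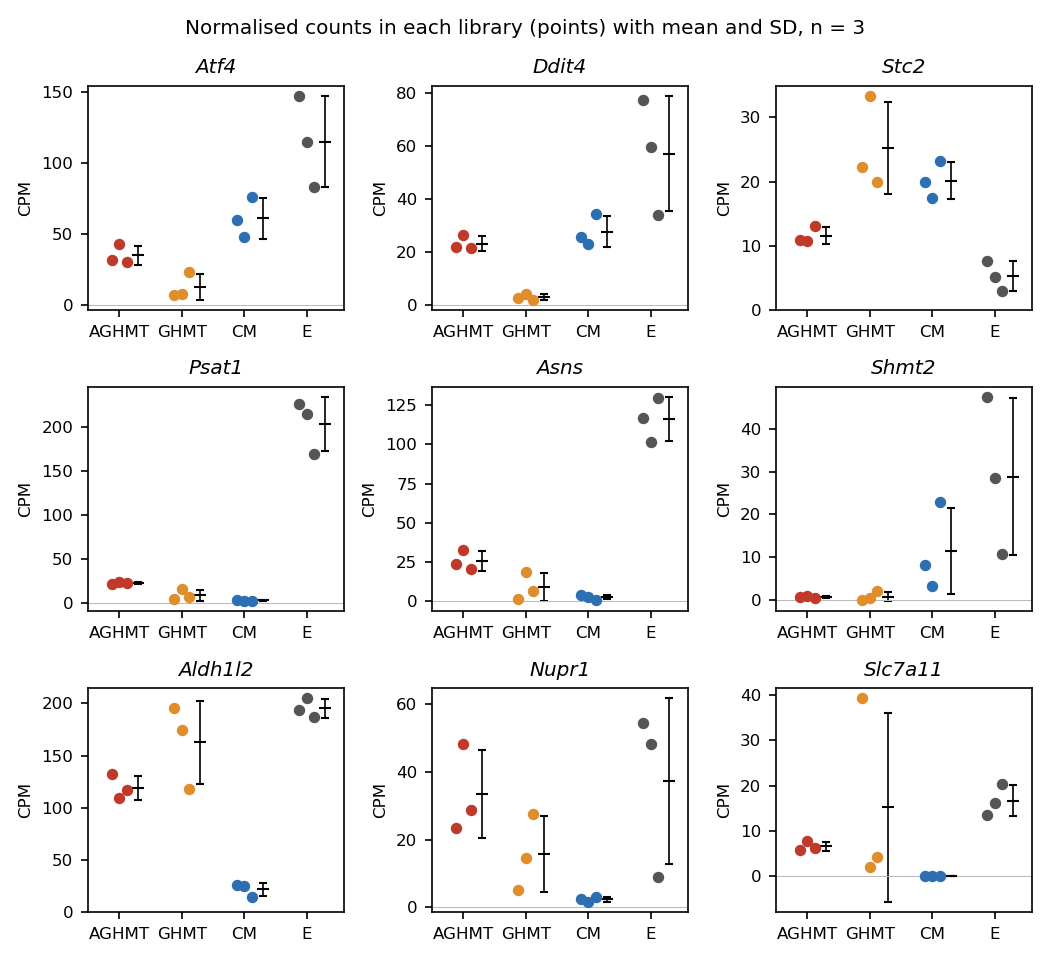
CPM of 9 of the genes (a panel each) in the 3 libraries of each group, with the mean and SD drawn beside the points. E is highest for Atf4, Ddit4, Psat1, Asns and Shmt2 on average and lowest for Stc2, while Aldh1l2, Nupr1 and Slc7a11 stand apart in CM, where they are lowest.

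The serine pathway makes serine from the glycolytic intermediate 3-phosphoglycerate by way of Phgdh, Psat1 and Psph, and all 3 genes passed as lower in GHMT and in CM. Psat1, the phosphoserine aminotransferase, had 21.3, 23.9 and 22.8 CPM in AGHMT, 3.93, 16.2 and 6.19 CPM in GHMT, 3.86, 2.42 and 2.23 CPM in CM and 227, 215 and 169 CPM in E. The E libraries lay far above all others, and CM lay below AGHMT and GHMT. Against E the log2 fold change was -3.17 ± 0.40 in AGHMT (edgeR adjusted p = 3.61e-05), -4.43 ± 0.45 in GHMT (adjusted p = 4.69e-06) and -6.14 ± 0.47 in CM (adjusted p = 1.39e-07). Psat1 passed as lower in all 3 comparisons under each of the 25 alternative settings.

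Phgdh, the first enzyme of the route, was low throughout: it averaged 0.124 ± 0.0255 CPM in AGHMT, from 6 reads in all, against 4.45 ± 3.30 CPM in E (log2 fold change -5.10 ± 0.85). It had 1 read in all of GHMT, 21.8-fold below E (95% counting interval 3.89 to 861), and 1 read in all of CM, 154-fold below E (27.5 to 6078). Without E 1, which held 480 of the 642 E reads, these ratios were 10.8 and 76.0. Such intervals cover counting error only. With the GC correction the GHMT value of Phgdh was -1.12 and did not pass. Psph, the last enzyme, averaged 5.73 ± 1.71 CPM in AGHMT and 2.10 ± 0.875 CPM in CM, against 7.50 ± 2.75 CPM in E. It passed as lower in CM (-1.84 ± 0.63) and, with 3 reads in all, in GHMT (11.3-fold, 3.86 to 54.9). The CM call of Psph was lost in 9 of 25 settings, limma among them, and its GHMT call with the GC correction and after thinning. The AGHMT value of -0.39 ± 0.60 did not pass, and the ranges of AGHMT and E overlapped.

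The folate enzymes use serine to load one-carbon units, in the mitochondria by Shmt2, Mthfd2, Mthfd1l and Aldh1l2 and in the cytosol by Shmt1. Shmt2 had 0.692, 0.936 and 0.654 CPM in AGHMT, 0, 0.521 and 2.06 CPM in GHMT, 8.25, 3.42 and 22.8 CPM in CM and 47.3, 28.5 and 10.8 CPM in E. AGHMT and GHMT lay below every CM and E library, and CM overlapped with E. The log2 fold change against E was -5.23 ± 0.84 in AGHMT (edgeR adjusted p = 0.000262) and -4.90 ± 0.99 in GHMT (adjusted p = 0.00108), and in CM -1.34 ± 0.70 without passing (adjusted p = 0.140).

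Mthfd2, the dehydrogenase and cyclohydrolase next in this chain, had 11.9, 16.6 and 14.7 CPM in AGHMT, 1.31, 27.6 and 4.12 CPM in GHMT, 1.78, 1.81 and 2.40 CPM in CM and 76.2, 57.4 and 40.3 CPM in E. All libraries of the first 3 groups lay below E, CM was low in all 3 libraries, and GHMT 2 stood above the other GHMT libraries. CM was lower than E by -4.87 ± 0.74 on the log2 scale (edgeR adjusted p = 8.78e-05). Mthfd2 also passed as lower in AGHMT and GHMT. The AGHMT call was lost in 6 of 25 settings, limma and any 1 AGHMT library left out among them. The GHMT call was lost with the GC correction and after thinning. Mthfd1l, which releases formate, averaged 4.20 ± 0.387 CPM in AGHMT, 1.71 ± 1.27 CPM in GHMT, 1.04 ± 0.330 CPM in CM and 25.9 ± 3.96 CPM in E, and passed as lower in all 3.

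Aldh1l2, the mitochondrial enzyme that oxidises 10-formyltetrahydrofolate, was lower than in E in CM, and in AGHMT and GHMT it lay closer to the E level. It had 132, 109 and 117 CPM in AGHMT, 195, 175 and 118 CPM in GHMT, 25.8, 25.6 and 14.6 CPM in CM and 194, 205 and 186 CPM in E. CM lay below all other libraries, AGHMT lay below E, and GHMT overlapped with E. The log2 fold change against E was -3.14 ± 0.32 in CM (edgeR adjusted p = 1.93e-06), and neither AGHMT (-0.71 ± 0.29, adjusted p = 0.0594) nor GHMT (-0.27 ± 0.30, adjusted p = 0.458) passed. Of its 7503 exon bases, 1056 are shared with D10Wsu102e on the opposite strand. Shmt1 averaged 1.36 ± 0.325 CPM in AGHMT and 3.66 ± 1.46 CPM in CM, against 6.10 ± 2.91 CPM in E. It passed as lower in AGHMT (-2.16 ± 0.69) and, with 3 reads in all, in GHMT (9.34-fold, 3.19 to 45.4). The AGHMT call of Shmt1 was lost in 7 of 25 settings, limma and any 1 AGHMT library left out among them. Its GHMT call was lost with the GC correction and after thinning.

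Of the transporters, the heavy chain Slc3a2 and its partner Slc7a5, which take up leucine and other large neutral amino acids, and the arginine and lysine carrier Slc7a1 passed as lower in AGHMT, GHMT and CM. Slc7a5 had 6.22, 13.8 and 8.94 CPM in AGHMT, 2.62, 8.34 and 1.37 CPM in GHMT, 0.817, 0.805 and 2.40 CPM in CM and 89.0, 55.8 and 15.8 CPM in E. All 3 groups lay below E, whose libraries differed widely among themselves. CM was lower than E by -5.39 ± 0.80 (edgeR adjusted p = 7.81e-05). The AGHMT call of Slc7a5 was lost in 5 of 25 settings, the GC correction among them.

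Slc3a2 averaged 19.2 ± 5.36 CPM in AGHMT, 9.27 ± 2.37 CPM in GHMT, 13.6 ± 6.34 CPM in CM and 71.0 ± 28.5 CPM in E. Slc7a1 averaged 22.9 ± 3.53 CPM in AGHMT, 19.2 ± 6.58 CPM in GHMT, 33.3 ± 1.02 CPM in CM and 69.0 ± 14.9 CPM in E. With the GC correction none of these transporters passed in GHMT against E: the values were -0.49 for Slc7a5, -0.35 for Slc3a2 and 0.30 for Slc7a1. The CM call of Slc7a1 was lost in 11 of 25 settings, among them DESeq2, limma and any 1 CM library left out. Slc7a11, the cystine carrier xCT, differed from the others: it had 5.84, 7.76 and 6.27 CPM in AGHMT, 39.3, 2.08 and 4.12 CPM in GHMT, and 13.4, 16.2 and 20.3 CPM in E. CM held a single read, 466-fold below E (95% counting interval 83.5 to 18403). AGHMT and GHMT did not pass against E, and GHMT 1 was the highest of the 12 libraries.

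Aminoacyl-tRNA synthetases load amino acids onto transfer RNAs. All 7 of them passed as lower in AGHMT against E, 5 in GHMT and 6 in CM, where 24.6%, 32.9% and 22.5% of all genes did. Without AGHMT 3 the 7 became 3 (10.7% of all genes), and with the GC correction the 5 became 2 (14.4%). Sars had 8.30, 12.9 and 7.80 CPM in AGHMT, 2.62, 5.21 and 4.12 CPM in GHMT, 15.8, 8.55 and 53.6 CPM in CM and 261, 63.8 and 38 CPM in E. AGHMT and GHMT lay below all E libraries, CM 3 lay above E 3, and E 1 stood high. The log2 fold change against E was -3.65 ± 0.75 in AGHMT (edgeR adjusted p = 0.00162), -4.85 ± 0.88 in GHMT (adjusted p = 0.000516) and -2.23 ± 0.71 in CM (adjusted p = 0.0191). The CM call of Sars was lost in 10 of 25 settings, DESeq2 and limma among them.

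Aars, for alanine, had 10.8, 18.4 and 11.2 CPM in AGHMT, 18.4, 5.21 and 21.3 CPM in GHMT, 24.2, 22.6 and 43.1 CPM in CM and 283, 165 and 64 CPM in E. It passed as lower in all 3, by -3.67 ± 0.58 in AGHMT (edgeR adjusted p = 0.00023). The bifunctional Eprs, for glutamate and proline, had 178, 186 and 140 CPM in AGHMT, 48.5, 69.8 and 94.2 CPM in GHMT, 114, 127 and 81.3 CPM in CM and 362, 345 and 419 CPM in E. Its groups lay below E in each comparison, by -1.16 ± 0.30 in AGHMT, -2.39 ± 0.31 in GHMT and -1.80 ± 0.30 in CM. Gars, for glycine, averaged 63.8 ± 5.42 CPM in AGHMT, 36.8 ± 30.2 CPM in GHMT, 47.8 ± 7.51 CPM in CM and 200 ± 6.06 CPM in E, and passed as lower in all 3.

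Nars, for asparagine, had 265, 244 and 241 CPM in AGHMT, 305, 286 and 333 CPM in GHMT, 61.7, 66.4 and 57.5 CPM in CM and 469, 392 and 364 CPM in E. The groups did not overlap, with E highest, then GHMT, then AGHMT and CM lowest. CM was lower than E by -2.72 ± 0.25 (edgeR adjusted p = 7.7e-07), AGHMT by -0.71 ± 0.24 (adjusted p = 0.0237), and GHMT at -0.41 ± 0.24 did not pass. The AGHMT call was lost in 8 of 25 settings, among them the replicate block and any 1 AGHMT library left out. Iars, for isoleucine, averaged 75.9 ± 9.77 CPM in AGHMT, 135 ± 54.2 CPM in GHMT, 62.0 ± 23.9 CPM in CM and 199 ± 31.6 CPM in E, and only GHMT did not pass. Wars, for tryptophan, averaged 2.68 ± 1.09 CPM in AGHMT, 2.81 ± 3.6 CPM in GHMT, 13.2 ± 10.8 CPM in CM and 21.8 ± 12.3 CPM in E, and only CM did not pass.

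The remaining 4 enzymes of amino acid synthesis passed as lower in AGHMT, GHMT and CM (24.6%, 32.9% and 22.5% of all genes). Without AGHMT 3 the calls of Asns and Cth in AGHMT were lost. The Cth call was lost in 5 of 24 settings, any 1 AGHMT library left out among them. In GHMT the GC correction ended the call of Pycr1 and turned the value of Aldh18a1 to 0.63. Asns, asparagine synthetase, had 23.8, 32.5 and 20.3 CPM in AGHMT, 1.31, 18.8 and 6.87 CPM in GHMT, 3.72, 3.02 and 1.03 CPM in CM and 117, 101 and 130 CPM in E. E lay above all other libraries, AGHMT lay above CM and GHMT, and GHMT overlapped with CM. The log2 fold change against E was -2.18 ± 0.54 in AGHMT (edgeR adjusted p = 0.00508), -3.55 ± 0.60 in GHMT (adjusted p = 0.00031) and -5.43 ± 0.63 in CM (adjusted p = 8.29e-06).

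Cth, which makes cysteine from cystathionine, averaged 3.27 ± 0.504 CPM in AGHMT and 1.34 ± 0.394 CPM in CM, against 11.5 ± 1.26 CPM in E, and had 1 read in GHMT, 48.2-fold below E (8.64 to 1905). Aldh18a1 and Pycr1 catalyse the first and last steps from glutamate to proline. Aldh18a1 averaged 8.04 ± 2.0 CPM in AGHMT, 14.2 ± 10.4 CPM in GHMT, 4.98 ± 2.05 CPM in CM and 68.9 ± 44.0 CPM in E. Pycr1 averaged 2.54 ± 0.166 CPM in AGHMT, 0.979 ± 0.853 CPM in GHMT, 1.33 ± 0.506 CPM in CM and 14.7 ± 4.15 CPM in E.

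Per kilobase of exon, the 3 highest of the 32 genes in E were Nars at 93.8, Gars at 64.2 and Atf4 at 48.7 CPM per kilobase, followed by Psat1 at 47.9 and Asns at 42.4. In AGHMT the order began with Nars at 57.4 and Gars at 20.4, with Atf4 at 14.8, Asns at 9.34 and Psat1 at 5.34 CPM per kilobase. In GHMT Nars at 70.7, Iars at 25.6 and Aldh1l2 at 21.7 led, with Atf4 at 5.33, Asns at 3.28 and Psat1 at 2.06. In CM Atf4 at 25.8 led, with Asns at 0.95 and Psat1 at 0.67 CPM per kilobase. Exon length was taken from all annotated exons of a gene, so a gene with long rarely used exons is understated.

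AGHMT against GHMT asks what differs when Akt is added to the factors, as far as the label goes. In this comparison 5 of the 32 genes passed as higher in AGHMT, where 13.2% of all tested genes did, and 0 passed as lower (4.58% of all genes). The share of 5 in 32 is near that of all genes, and the median of 0.72 log2 units stood beside 0.63 over all genes. At an unadjusted p under 0.05, edgeR gave 2 genes as lower, Stc2 and Iars, and after adjustment DESeq2 called 2 and limma 0. With the GC correction, 3 genes were higher (7.77% of all genes) and 6 lower (18.9%), and the medians were -0.44 for the 32 genes and -0.20 for all genes, so the sign of both medians depends on the setting. The libraries of both groups did not overlap for 14 of the 32 genes, and for 45.9% of all genes. The 5 genes are Atf4, Ddit4, Eprs, Psph and Cth.

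Ddit4 had the largest value among the genes with at least 10 CPM on average, at 2.92 ± 0.49 log2 units (edgeR adjusted p = 0.00206), and the levels given above did not overlap. Atf4 was higher by 1.44 ± 0.45 (edgeR adjusted p = 0.0391) and Eprs by 1.24 ± 0.30 (adjusted p = 0.014), also without overlap. Psph, with 294 reads in AGHMT and 3 in GHMT, was 8.19-fold higher (95% counting interval 2.77 to 39.9). Cth, with 165 reads in AGHMT and 1 in GHMT, was 13.8-fold higher (2.44 to 548). None of the 5 calls held in all 25 alternative settings. With all libraries thinned to 1872558 gene reads, where 27 of the genes could be tested, 0 passed as higher with edgeR (2.83% of all genes). The Atf4 call was lost in 12 settings. Without AGHMT 1, AGHMT 2 or E 2 the count of 5 became 2 (7.10% of all genes), 1 (5.52%) or 3 (9.13%). Without E 1 it became 9 (25.1%).

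**Figure D5:**
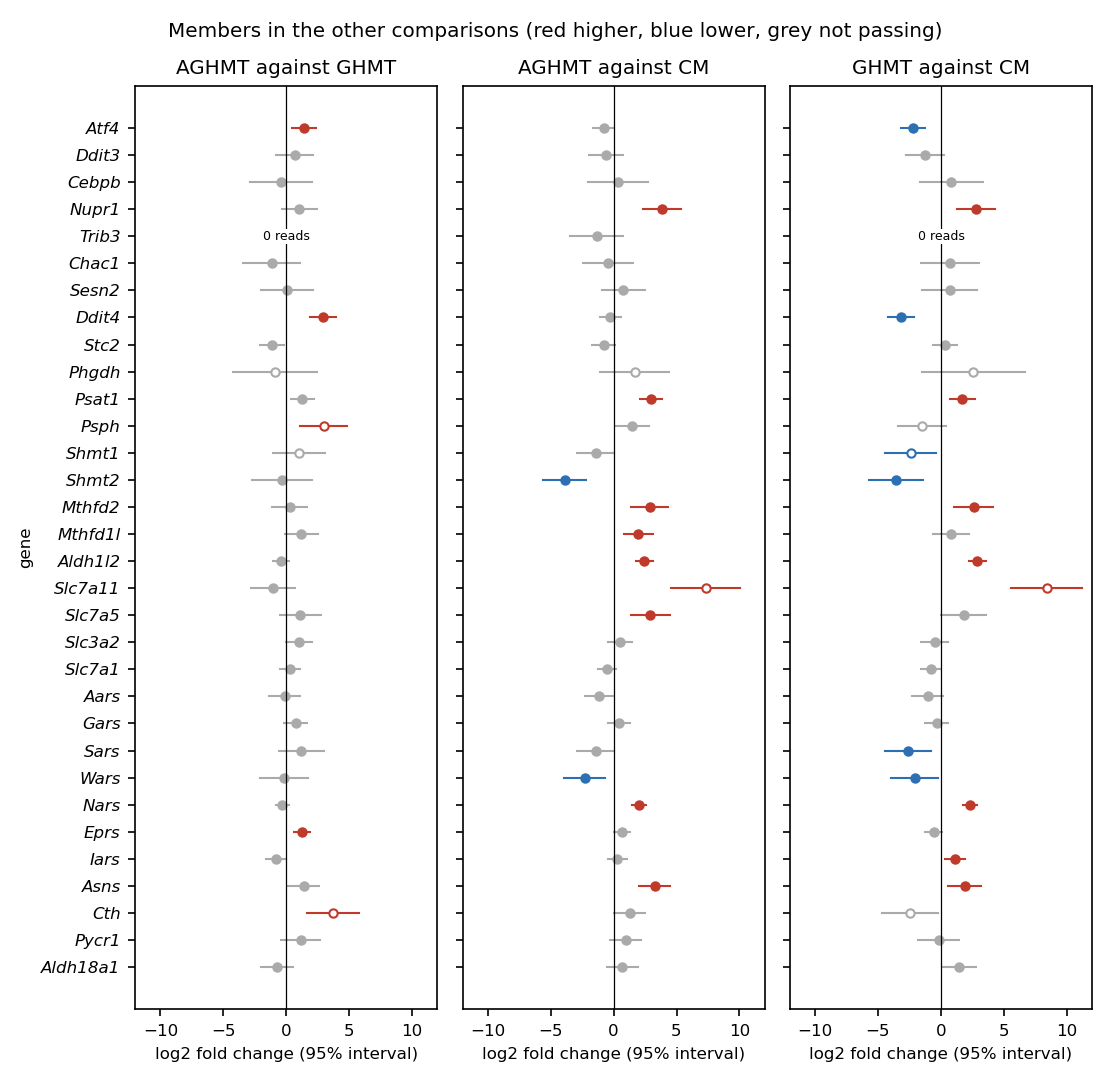
Log2 fold change with its 95% interval (horizontal axis) for each gene in AGHMT against GHMT, AGHMT against CM and GHMT against CM, in the colours and marks of the plot against E. Most genes are grey in the left panel, and Nupr1, Psat1, Mthfd2, Aldh1l2, Slc7a11, Nars and Asns are red in both panels against CM.

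Against CM, the cells that the reprogrammed fibroblasts are meant to resemble, genes passed in both directions. In AGHMT against CM 9 genes passed as higher (23.7% of all genes) and 2 as lower (24.4%). In GHMT against CM 8 passed as higher (23.8%) and 6 as lower (34.7%). The shares of genes called higher are close to those of all genes in these fits. After the GC correction, 17 genes were higher in AGHMT against CM (18.9% of all genes) and 20 in GHMT against CM (28.6%). The 2 genes lower in AGHMT became 10 with DESeq2 (41.7% of all genes) and 9 with DESeq2's size factors (36.6%). They became 7 when only these groups were fitted (31.2%). Libraries did not overlap with CM for 23 genes in AGHMT (70.5% of all genes) and 16 in GHMT (58.6%). Shared by both comparisons among the higher genes were Nupr1, Psat1, Mthfd2, Aldh1l2, Slc7a11, Nars and Asns, and both comparisons use the same CM libraries. Mthfd1l and Slc7a5 passed in AGHMT and Iars in GHMT. Shmt2 and Wars passed as lower in both, and Atf4, Ddit4, Shmt1 and Sars in GHMT. In GHMT the Wars call was lost or its sign turned in 12 of 25 settings (0.30 with the GC correction), and the Shmt1 call was lost in 12 of 24. The GHMT calls of Iars, Asns, Sars, Psat1 and Mthfd2 were lost in 11, 8, 6, 5 and 4 of 25.

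Nupr1 was higher than in CM by 3.86 ± 0.71 log2 units in AGHMT (edgeR adjusted p = 0.000693) and by 2.82 ± 0.71 in GHMT (adjusted p = 0.0038), and its CM libraries lay below all others. Nars was higher by 2.01 ± 0.25 in AGHMT (edgeR adjusted p = 2.65e-05) and by 2.31 ± 0.25 in GHMT (adjusted p = 3.56e-06). Aldh1l2 was higher by 2.44 ± 0.31 in AGHMT (edgeR adjusted p = 3.82e-05) and by 2.88 ± 0.32 in GHMT (adjusted p = 4.55e-06). Nars and Aldh1l2 passed in both comparisons under each of the 25 alternative settings.

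Asns was higher by 3.25 ± 0.58 in AGHMT (edgeR adjusted p = 0.000582) and by 1.88 ± 0.61 in GHMT (adjusted p = 0.0161), where the groups overlapped. Psat1 was higher by 2.97 ± 0.42 in AGHMT (edgeR adjusted p = 8.82e-05) and by 1.71 ± 0.45 in GHMT (adjusted p = 0.00519). Slc7a5 was higher by 2.92 ± 0.74 in AGHMT (edgeR adjusted p = 0.00546). Slc7a11, with 332 reads in AGHMT and 40 in GHMT against 1 in CM, was 196-fold (34.9 to 7760) and 282-fold (47.9 to 11432) higher. Of the 40 GHMT reads, 30 lay in GHMT 1, and without it the ratio was 86.6 (12.3 to 3758).

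Shmt2 was lower than in CM by -3.89 ± 0.80 log2 units in AGHMT (edgeR adjusted p = 0.0015) and by -3.56 ± 1.0 in GHMT (adjusted p = 0.00733). Wars was lower by -2.28 ± 0.76 in AGHMT (edgeR adjusted p = 0.0234), a call lost in 8 of 25 settings, limma and the GC correction among them. In GHMT, Ddit4 was lower by -3.17 ± 0.50 (edgeR adjusted p = 0.000104), Sars by -2.61 ± 0.85 (adjusted p = 0.0164) and Atf4 by -2.24 ± 0.45 (adjusted p = 0.00089). CM 3 was the highest CM library for each of these 5 genes, and without GHMT 1 and CM 3 together 3 genes rather than 6 were lower in GHMT. With the GC correction 2 genes were lower (19.3% of all genes) and 20 higher (28.6%) in GHMT, Atf4 among those that did not pass, at 0.47. Without AGHMT 1, AGHMT 3 or CM 3 the count of 2 lower in AGHMT became 1 (13.7% to 17.1% of all genes). Without AGHMT 3 or E 1 the count of 6 lower in GHMT became 10 (38.9% and 40.9%). Without GHMT 2 the count of 8 higher in GHMT became 5 (20.8%).

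Other genes of the same pathways were followed by list, and the lists share genes. Cars, Mars, Lars, Tars, Vars and Yars are counted both as reported ATF4 targets and as cytosolic synthetases. Atf3, Atf5, Cebpg and Ppp1r15a are counted both as such targets and as regulators of the stress response. The counts of these lists are therefore not independent. Of 27 tested genes that have been reported as ATF4 targets and are not among the 32, 16 were lower and 2 higher in AGHMT than in E, 15 were lower and 3 higher in GHMT, and 14 were lower and 4 higher in CM, where 24.6%, 32.9% and 22.5% of all genes were lower. The 16 became 9 without AGHMT 3 (10.7% of all genes) and 10 without E 1 (12.5%), and the 15 became 6 with the GC correction (14.4%). Bcat1, which starts the breakdown of branched-chain amino acids, averaged 27.0 ± 1.89 CPM in AGHMT, 1.99 ± 0.650 CPM in GHMT and 2.07 ± 0.596 CPM in CM, against 102 ± 32.5 CPM in E. Vldlr, a lipoprotein receptor on this list, averaged 305 ± 45.3 CPM in AGHMT, 300 ± 147 CPM in GHMT and 307 ± 112 CPM in CM, against 34.7 ± 4.91 CPM in E, and passed as higher in all 3.

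Of 16 sensors and regulators of the integrated stress response, 4 were lower and 2 higher in AGHMT than in E, 4 were lower and 3 higher in GHMT, and 6 were lower and 2 higher in CM. In AGHMT and GHMT the shares lower are near or below those of all genes (24.6% and 32.9%), and in CM 22.5% of all genes were lower. Of all genes, 21.9%, 19.8% and 19.5% were higher in AGHMT, GHMT and CM. Without AGHMT 3 or E 1, the 4 lower in AGHMT became 2 (10.7% and 12.5% of all genes) and the 3 higher in GHMT lost their calls (12.5% and 10.8%). Atf5, a relative of Atf4 that is also controlled at translation, averaged 48.0 ± 13.9 CPM in AGHMT, 10.2 ± 7.07 CPM in GHMT and 27.5 ± 2.98 CPM in CM, against 170 ± 27.3 CPM in E. It passed as lower in all 3, and as higher in AGHMT against GHMT (2.16 ± 0.42, edgeR adjusted p = 0.00476). Impact, an inhibitor of the eIF2α kinase GCN2, averaged 126 ± 11.8 CPM in AGHMT, 300 ± 104 CPM in GHMT and 22.1 ± 4.39 CPM in CM, against 121 ± 9.43 CPM in E. It passed as higher in GHMT and lower in CM.

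Of 13 other cytosolic synthetases, 11 were lower (24.6% of all genes) and 1 higher (21.9%) in AGHMT than in E. In GHMT 10 were lower (32.9%) and in CM 5 (22.5%). The 11 became 7 without AGHMT 1 (12.7% of all genes) and 6 without AGHMT 3 (10.7%). The gene higher in AGHMT was Dars, for aspartate, singled out after its values were seen, with 133 ± 6.98 CPM in AGHMT and 78.9 ± 11.8 CPM in E. Of 17 mitochondrial synthetases, 6 were lower in AGHMT (24.6% of all genes) and 7 in GHMT (32.9%), and in CM 2 were higher (19.5%). Without any 1 AGHMT library or E 1 the 6 became 1 (10.7% to 17.3% of all genes), and without E 2 it became 2 (18.5%). With the GC correction the counts lower were 2 in AGHMT (19.3%) and 1 in GHMT (14.4%).

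Genes of cell division and of fibroblasts moved with these results. The summed level of 5 genes of dividing cells was 90.4 to 101 CPM in AGHMT, 50.9 to 94.4 CPM in GHMT, 20.1 to 31.6 CPM in CM and 578 to 1009 CPM in E. Of them, 4, 4 and 5 passed as lower than in E, where 24.6%, 32.9% and 22.5% of all genes did. The summed level of 6 fibroblast markers was 4160 to 5085 CPM in AGHMT, 1403 to 3056 CPM in GHMT, 289 to 294 CPM in CM and 9584 to 11639 CPM in E. Beside the same shares of all genes, 4, 5 and 6 of these markers passed as lower. Mast cell markers summed to 310 to 340 CPM in AGHMT and 65.5 to 162 CPM in GHMT, against 7.21 to 10.3 CPM in CM and 0.217 to 0.489 CPM in E. Most of these sums was Mcpt4, at 322 ± 15.5 CPM in AGHMT and 110 ± 48.4 CPM in GHMT. Of the 5 mast cell markers, Cpa3, Kit, Tpsb2 and Cma1 had no read in GHMT. The summed level of 5 endothelial markers was 50 to 59.7 CPM in AGHMT, 2.62 to 5.73 CPM in GHMT, 408 to 564 CPM in CM and 4.43 to 5.38 CPM in E. All 5 passed as higher in AGHMT against E (21.9% of all genes) and 4 in AGHMT against GHMT (13.2%). The summed level of 5 macrophage markers was 14.2 to 19.2 CPM in AGHMT, 0.521 to 1.31 CPM in GHMT, 35.5 to 88.6 CPM in CM and 2.87 to 8.68 CPM in E, and Adgre1, Cd68 and C1qa had no read in GHMT. The part of these genes in the results above was not tested.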

How the data were processed

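RNA was measured in 12 libraries, 3 per group. Per the labels, libraries were made from TRIzol RNA with a TruSeq stranded kit. The deposited raw counts per Ensembl gene come from HTSeq, with Bowtie2 2.0.6 and mm10 listed beside it, per the submitters' processing notes. The sources used here give neither the annotation nor the strand setting of the counting. Of the 32 genes, 7 share exon bases with a gene on the opposite strand, whose reads cannot be told apart without that setting. The normalized signal table deposited by the authors holds counts divided by 1 size factor per library, with DESeq listed in the processing notes. Undoing that division gave 100% whole numbers at a tolerance of 0.001.

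Symbols were matched for 42548 of 43629 identifiers (GRCm38 annotation). Genes were filtered with filterByExpr (minimum count 10, minimum total 15), scaled by trimmed means of M values and fitted with robust quasi-likelihood in edgeR 4.0.16 over all 12 libraries, for 6 comparisons. A group with 1 to 3 reads is given by a ratio with its 95% counting interval, and one without reads by a bound from 3 reads over the group. Replicates differed beyond counting error (chi-square per degree of freedom 15.0 to 298). Values in every library are given for Atf4 and, per comparison and direction, for up to 4 passing genes with the largest change among those averaging at least 10 CPM whose groups do not overlap. Slc7a11 was added after its values were seen. From further lists, passing genes of at least 10 CPM among the largest changes are named. The 32 genes and the lists were chosen with earlier results of these data known.

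Alternatives were other scalings and filters, DESeq2 1.42.0, limma 3.58.1 on log2(value + 1) of the deposited values, the groups of a comparison alone, the replicate number as a block, thinning, a GC correction (lowess, span 0.3, on log2 CPM with a prior count of 2), removal of mitochondrially encoded genes and each library left out. The recovered reads, and GHMT 1 and CM 3 left out together, were added after seeing the data. The main fit was also run on simulated counts with known changes in AGHMT. Those counts had the same spread for all genes and no trend with GC content, so the run does not bear on either feature here. 1 promoter stretch with a match is not reported here.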

Additional observations from a re-analysis of the deposited data

How the results depend on the processing

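Over 25 alternative settings, calls that held in every setting where the gene could be tested numbered 10 of 26 in AGHMT against E, 9 of 25 in GHMT against E and 17 of 25 in CM against E. They numbered 0 of 5 in AGHMT against GHMT, 4 of 11 in AGHMT against CM and 3 of 14 in GHMT against CM. Trib3, Sesn2 and Cth against E, and Slc7a11 in GHMT against CM, could be tested in 24 of the settings only. The count lower than in E was 9 in GHMT with the GC correction, and after thinning, with 27 genes tested, 15 in AGHMT and 15 in CM. The count higher than in E was, in AGHMT, 0 with DESeq2's size factors, DESeq2, limma, the replicate block, thinning or total counts. In these settings 10.8% to 21.0% of all genes were higher. It was 2 with the GC correction (22.1% of all genes) or only the groups compared (31.0%). In GHMT it was 3 with the GC correction, 2 with no filter or without GHMT 1 and CM 3, and 0 with total counts, and in CM 0 after thinning or with total counts. In AGHMT against GHMT, the count higher was 3 with the GC correction (7.77% of all genes) or only these groups (9.96%). It was 2 with the replicate block (6.97%) and 0 after thinning (2.83%). The count lower was 2 in DESeq2 (10.6%) and 6 with the GC correction (18.9%). In AGHMT against CM, the count lower was 9 with DESeq2's size factors (36.6% of all genes), 10 in DESeq2 (41.7%) and 5 in limma (26.9%). It was 4 with no filter (16.0%) and 7 with only these groups (31.2%). It was 1 with the replicate block (18.7%), total counts (18.4%) or without GHMT 1 and CM 3 (21.0%). The count higher there was 17 with the GC correction (18.9% of all genes) and 5 after thinning (12.8%). In GHMT against CM, the count lower was 12 with DESeq2's size factors (43.0% of all genes), 13 in DESeq2 (44.1%) and 14 in limma (51.0%). It was 11 without mitochondrially encoded genes (42.5%), 3 without GHMT 1 and CM 3, and 2 with the GC correction (19.3%). In each of these settings the share of the 32 genes called lower was below that of all genes. The count higher there was 20 with the GC correction (28.6% of all genes), 5 with total counts (18.3%) and 4 in limma (16.8%) or after thinning (19.4%). It was 3 with only these groups (20.3%), where 19 genes could be tested.

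With 1 library left out, counts higher and lower ranged as follows, with the range of the share of all genes in brackets. AGHMT against GHMT gave 1 to 9 (5.52% to 25.1%) and 0 to 0 (0.581% to 6.66%). AGHMT against E gave 0 to 1 (15.7% to 24.3%) and 14 to 26 (10.7% to 27.8%). GHMT against E gave 1 to 2 (10.8% to 20.1%) and 24 to 27 (26.5% to 37.8%). CM against E gave 1 to 1 (15.6% to 22.0%) and 19 to 25 (16.4% to 25.3%). AGHMT against CM gave 9 to 11 (17.9% to 25.9%) and 1 to 3 (13.7% to 27.6%). GHMT against CM gave 5 to 10 (17.0% to 23.0%) and 4 to 10 (28.6% to 40.9%). Among called genes, signs turned with the GC correction only, and none of these values passed. They were 0.30 for Slc7a1 and 0.63 for Aldh18a1 in GHMT against E, 0.50 for Ddit4 in AGHMT against E, and 0.47 for Atf4 and 0.30 for Wars in GHMT against CM. The cause was not tested. The replicate numbers are shared by label only: same-numbered libraries correlated at -0.719 to 0.130 in their deviations from the group means. With total counts as the scale, the median of all genes in GHMT against E moved by -1.32 log2 units, and the 32 genes lay at -2.00 relative to it, against -1.97 as given above. With the GC correction this gap was -0.83 in GHMT against E (medians of -0.81 and 0.01 for the 32 and for all genes), -1.49 in AGHMT against E and -2.22 in CM against E. In GHMT 1, levels under 3.93 CPM rest on fewer than 3 reads.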

Other observations

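Of 26 tested folate and one-carbon enzymes outside the 32 genes, 8 were lower and 3 higher in AGHMT than in E, 10 lower and 5 higher in GHMT, and 4 lower and 2 higher in CM. Over all tested genes the shares lower were 24.6%, 32.9% and 22.5% and the shares higher 21.9%, 19.8% and 19.5%, so most of these counts are near or below the background. The 8 became 3 without AGHMT 1, AGHMT 3, E 1 or E 2 (10.7% to 18.5% of all genes). They became 4 without AGHMT 2 (17.3%) and 5 without CM 1 (23.0%), and the 10 became 2 with the GC correction (14.4%). The 5 became 3 without AGHMT 3, E 1 or GHMT 1 (10.8% to 18.9%), and the 4 became 8 without GHMT 3 (25.3%). Mthfd1, the cytosolic folate enzyme, averaged 3.34 ± 1.30 CPM in AGHMT, 1.09 ± 1.46 CPM in GHMT and 13.3 ± 5.02 CPM in CM, against 22.5 ± 10.2 CPM in E (SD, n = 3 each). It passed as lower in AGHMT and, with 5 reads in all, in GHMT. Sfxn1, a mitochondrial serine carrier, averaged 41.3 ± 7.96 CPM in AGHMT, 132 ± 82.0 CPM in GHMT and 8.07 ± 1.87 CPM in CM, against 49.8 ± 6.80 CPM in E, and passed as higher in GHMT and lower in CM. Dld, a subunit shared by the glycine cleavage system and other mitochondrial complexes, averaged 545 ± 69.6 CPM in AGHMT, 422 ± 22.5 CPM in GHMT and 745 ± 273 CPM in CM, against 133 ± 37.8 CPM in E, and passed as higher in all 3.

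Of 10 other proline and glutamate enzymes, 4 were lower (24.6% of all genes) and 1 higher (21.9%) in AGHMT than in E. In GHMT 3 were lower (32.9%) and 2 higher (19.8%), and in CM 2 were lower (22.5%) and 3 higher (19.5%). In GHMT and CM the shares lower are near or below those of all genes. At most 1 of the 4 kept its call without any 1 AGHMT library or E 1 (10.7% to 17.3% of all genes). The 3 in GHMT lost theirs with the GC correction (14.4%), and without AGHMT 3 the 3 became 6 (37.8%). Glul, glutamine synthetase, averaged 205 ± 27.6 CPM in AGHMT, 240 ± 48.3 CPM in GHMT and 262 ± 25.1 CPM in CM, against 22.3 ± 2.21 CPM in E, and every library of the first 3 groups lay above every E library. It passed as higher in AGHMT by 3.2 ± 0.28 log2 units (SE, edgeR adjusted p = 8.7e-07), in GHMT by 3.43 ± 0.28 and in CM by 3.55 ± 0.28. P4ha1, a prolyl hydroxylase of collagen, averaged 217 ± 19.3 CPM in AGHMT, 140 ± 74.7 CPM in GHMT and 36.3 ± 6.88 CPM in CM, against 235 ± 3.05 CPM in E, and only CM passed as lower.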
